A study of Mus musculus with 24 samples.

Results

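The nuclear receptor family was followed in mouse liver as 35 genes, chosen by name from the array: the thyroid hormone, retinoic acid, peroxisome proliferator-activated, liver X, farnesoid X, vitamin D, xenobiotic, retinoid X, HNF4, estrogen, estrogen-related, mineralocorticoid and NR4A receptors and several orphan receptors. Receptors counted with the circadian clock genes and SHP were left out, but Rora, which is also tied to the clock, was kept. The 35 genes are carried by 80 of the 56605 non-control probes of the array. The rule takes them by name and uses no measured value.

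Liver RNA came from 24 wild-type male C57Bl/6J mice aged 8 weeks, on a chow diet, in 4 groups of 6, with 1 array per mouse. The water group ate chow freely and drank tap water. The glucose and fructose groups ate the same chow and had 20% of the named sugar in their drinking water for 24 h. The fasted group had no food for 24 h, and all mice were killed at ZT16, a time in the dark phase when mice normally eat. No transgene or deletion is named for any group, and each sample is 1 animal.

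Nuclear receptors are transcription factors that bind DNA through zinc fingers, and many are switched on by small fat-soluble ligands such as fatty acids, bile acids, oxysterols, thyroid hormone, retinoic acid and drugs. Many of them pair with a retinoid X receptor, and in the absence of ligand some recruit corepressors, which coactivators replace once ligand is bound. In the liver they are known for switching fuel use between the fed and the fasted state and for handling bile acids and foreign compounds. The array measures their mRNA, and neither protein nor ligand.

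Levels are log2 intensities minus the 75th percentile of the same array, so 0 is the signal below which 75 percent of probes lay. They compare 1 probe between mice and not 1 gene with another. Groups are given as the lowest, the median and the highest of 6 mice. A gene was called changed at an adjusted p under 0.05 in limma's moderated test, with Benjamini-Hochberg adjustment over all 23966 genes tested, and intervals are 95% intervals from the same fit.

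Transcripts of 34 of the 35 receptors were detected. For 33 of them the probe that stands for the gene was well above background on all 24 arrays. The probe of Hnf4g, a close relative of Hnf4a known mainly from gut and kidney, was well above background on 23, missing in 1 fasted mouse. The probe that stands for a gene is its brightest kept one. Of all 80 receptor probes, 58 were well above background on all 24 arrays and 9 on 0. The other probe of Esrrb passed on 3 arrays, that of Nr6a1 on 2 and those of Nr4a3 on 1 and 0. Vdr, the vitamin D receptor, had 2 probes, and neither was well above background on any of the 24 arrays, so only a bound exists for it and it was not tested. Of the 8 hepatocyte markers listed, 7 were tested and none was below background in any group, and per array between 32519 and 36272 probes were well above background.

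Fasting changed the mRNA of 21 of the 34 receptors, where 42.6% of all genes tested were called. The 12 that rose stand beside a background of 21.7% of genes called higher, and the 9 that fell beside 20.9% called lower. The groups of 6 did not overlap for 7 receptors, 4 higher and 3 lower with fasting, against 24.3% of all genes. Most shifts were moderate. The median size of the log2 difference was 0.33 over the 34 receptors and 0.24 over all genes, and the signed medians were 0.06 and 0.02. Among called receptors 9 differed by more than 1.5-fold and 1, Nr3c2, by more than 2-fold. The standard error of a difference ran from 0.05 for Nr1h2 to 0.36 for Esrrg, so small shifts are resolved unevenly among the members.

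**Figure D1:**
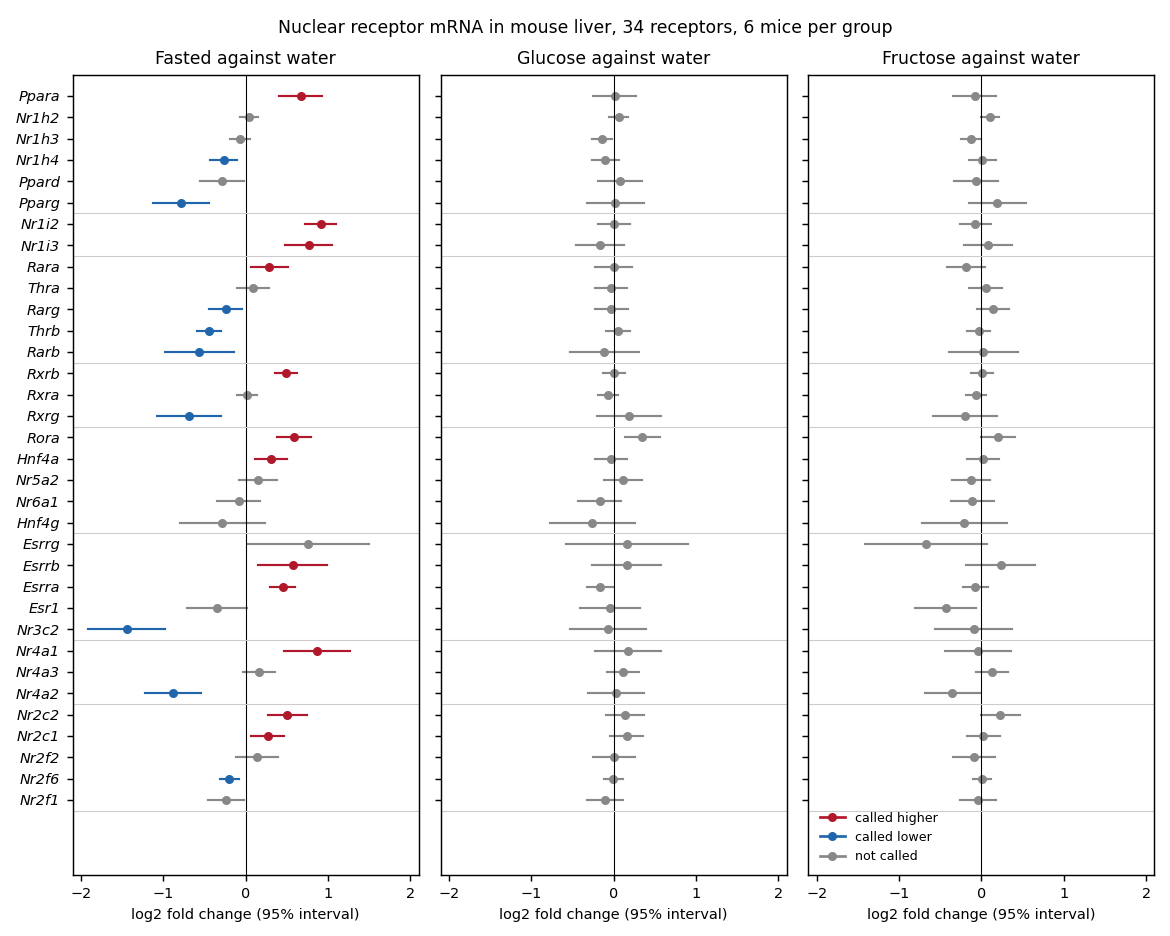
Log2 fold change (horizontal axis) of 34 nuclear receptors, 1 per line and grouped by role, in fasted, glucose and fructose mice against the water group (6 mice each), with points for the estimates, bars for 95% intervals and colour for the call. With fasting 12 receptors lie to the right and 9 to the left as called genes, and in both sugar panels none is called.

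The drug and bile acid sensors Nr1i2 and Nr1i3 rose together in fasted liver. Nr1i2 encodes PXR, which senses drugs and bile acids and drives Cyp3a genes. Its level was 3.80, 4.08 and 4.16 in the water group and 4.85, 4.97 and 5.07 in the fasted group. Every fasted mouse lay above every fed mouse, the highest of which was a fructose mouse at 4.21. The rise was 1.88-fold, a log2 difference of 0.91 ± 0.09 (SE), with an adjusted p of 3.69e-08. Nr1i3 encodes CAR, which drives Cyp2b genes. Its level was 2.75, 3.08 and 3.53 with water and 3.46, 3.85 and 4.09 with fasting. The lowest fasted mouse overlapped the highest water mouse. The rise was 0.76 ± 0.14 on the log2 scale (adjusted p = 9.58e-05), and its second probe gave 0.92.

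Of 11 tested genes listed as CAR and PXR targets, 7 rose and 3 fell with fasting, with a median log2 difference of 0.82. That is 90.9% called. The counts of this list and of those below stand beside 42.6% of all genes called. Cyp2b9 and Cyp2b10, both cytochromes P450, rose by 2.38 and 2.36, while Cyp2c55, another P450 of the list, fell by 2.06.

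Among the receptors for fatty acids, sterols and bile acids, Ppara rose, Pparg and Nr1h4 fell, and the remaining 3 were not called. Ppara, the fatty acid receptor that drives fat oxidation and ketone production in fasting, had levels of 5.59, 6.01 and 6.24 with water. With fasting they were 6.22, 6.68 and 6.83. A single fasted mouse, replicate 2, lay within the water range and the other 5 above it. The log2 difference was 0.67 ± 0.12 (adjusted p = 0.00013), and 0.75 without that mouse. All 16 listed PPARA target genes rose, with a median log2 difference of 1.63. Cyp4a14 and Cyp4a10, which oxidise the far end of fatty acids, rose by 6.57 and 5.69, and Fgf21, a fasting hormone made by the liver, rose by 4.63.

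Pparg, the fat-storing relative of Ppara, had levels of 2.07, 2.48 and 2.67 in the water group and 1.26, 1.60 and 1.83 in the fasted group. The 2 groups did not overlap. It fell by 0.79 on the log2 scale, with a standard error of 0.16 (adjusted p = 0.000431). Among 4 adipocyte markers 1 was called, Adipoq, which rose by 1.40. The log2 of the summed signal of those markers ran from 0.23 to 1.99 with water and from -0.15 to 1.56 with fasting. Bright markers weigh most in such a sum. The part of fat cells in the Pparg value was not tested.

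Ppard, which senses fatty acids in many tissues, gave -0.29 ± 0.13 and was not called with fasting (adjusted p = 0.081). Its call changed with single mice: without water replicate 1 or without fasted replicate 2 the adjusted p lay between 0.0229 and 0.0387. Nr1h3 and Nr1h2, the oxysterol receptors LXR alpha and LXR beta, gave -0.07 and 0.04. Both intervals, -0.19 to 0.05 and -0.07 to 0.15, lie far inside a 1.5-fold change. The 10 LXR target genes split, with 4 higher and 4 lower. Srebf1, which drives fat synthesis and also answers to insulin, fell by 3.85, and Mylip and Abcg8 rose by 0.93 and 0.91.

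Nr1h4 encodes FXR, the bile acid receptor. Its level was 6.10, 6.17 and 6.29 with water and 5.70, 5.95 and 6.04 with fasting. The groups did not overlap, though the shift was small. The fit gave -0.27 ± 0.08 (adjusted p = 0.00785), and its second probe gave -0.65. Fasted and glucose mice overlapped on the first probe, which was not called between them (-0.17, adjusted p = 0.0904 among all probes). The second probe was called there, at -0.62 (adjusted p = 4.13e-05). Of 9 tested FXR target genes 4 rose and 2 fell. Cyp7a1, which catalyses the first step from cholesterol to bile acids, fell by 2.85, while Cyp8b1, which sets the share of cholic acid, rose by 2.26 and Abcb4, a phospholipid pump, by 1.19.

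Among the thyroid hormone and retinoic acid receptors Thrb, Rarb and Rarg fell and Rara rose. Thrb, the main thyroid hormone receptor of liver, lay between 1.39 and 1.59 with water and at 0.94, 1.05 and 1.19 with fasting. No fasted mouse reached the water range. Fasting lowered it, with a log2 difference of -0.44 ± 0.07 (adjusted p = 1.32e-05) and -0.37 on its second probe. Thra, the other thyroid hormone receptor, gave 0.08 ± 0.09 on the probe that stands for it and was not called. Its remaining probes rose, by 0.37 ± 0.10 (adjusted p = 0.00494 among all probes) and 0.67 ± 0.19 (adjusted p = 0.00565). The mean over its 3 probes was also called, at 0.37 (adjusted p = 0.00406).

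Of the 10 thyroid hormone target and handling genes 5 fell and 2 rose. Thrsp, a lipogenic gene induced by thyroid hormone and by carbohydrate, fell by 4.52, and Me1, malic enzyme, fell by 1.53. Klf9, a target that glucocorticoids induce as well, rose by 1.37.

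Rarb, a retinoic acid receptor that retinoic acid itself induces, was at -0.52, -0.02 and 1.09 with water and at -0.59, -0.46 and -0.42 with fasting. The 2 groups overlapped, and the water group was the wider. Its log2 difference was -0.56 ± 0.20 (adjusted p = 0.0282). Leaving out water replicate 4 or fasted replicate 4 ended the call (adjusted p = 0.0824 and 0.0515), and so did the mean over its 3 probes (-0.25, adjusted p = 0.406). That mean takes in a probe well above background on only 6 of 24 arrays, which gave 0.30 ± 0.59. The remaining Rarb probe, well above background on all 24, gave -0.48 ± 0.20 (adjusted p = 0.0577 among all probes). Rara, the broadly expressed form, rose by 0.28 ± 0.11 (adjusted p = 0.0393), and Rarg gave -0.24 ± 0.09 (adjusted p = 0.041). Both sit at the threshold. Another Rara probe, well above background on all 24 arrays, gave 0.01 (adjusted p = 0.938 among all probes), and the mean over probes gave 0.15 (adjusted p = 0.211). The call of Rara was also lost under quantile normalization (adjusted p = 0.0585), in the deposited table (adjusted p = 0.0962) and with no filter on dim probes. It was lost without any 1 of 8 mice, water replicates 1, 3, 4 and 5 and fasted replicates 3 to 6, with adjusted p up to 0.0911. That of Rarg was lost without any 1 of 7, water replicates 1, 2, 3 and 5 and fasted replicates 2, 4 and 5, with adjusted p up to 0.128. It was also lost in the deposited table (adjusted p = 0.0562), with only the 2 groups fitted (adjusted p = 0.0923), with the array median and with no filter.

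Of 12 tested retinoid genes 3 fell and 1 rose, 33.3% called where 42.6% of all genes were. Cyp26a1, which degrades retinoic acid, fell by 3.00, Lrat, which stores retinol as esters, by 1.25, and Rdh16, which oxidises retinol, rose by 1.64. Lrat is also a stellate cell marker, and of the 8 stellate markers 4 fell and 1 rose, Col3a1 by 1.85 downward and Dcn by 0.38 upward. The log2 of the summed signal of the stellate markers, in which bright markers weigh most, was 6.03 to 6.60 with water. With fasting it was 6.38 to 6.64. In whole liver, fewer cells of a type and less RNA per cell cannot be told apart, and the part of stellate cells in Rarb and Rxrg was not tested.

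The 3 retinoid X receptors, the shared partners of most of the receptors above, each behaved differently with fasting. Rxrb was at 4.16, 4.23 and 4.28 with water and at 4.61, 4.67 and 5.01 with fasting. All 6 fasted mice lay above all 18 fed mice, whose highest value was 4.42. The log2 difference was 0.49 ± 0.06 (adjusted p = 1.36e-06), all 3 probes rose, and without fasted replicate 2, the highest mouse, it was 0.43. Rxra, the most studied liver form, lay at 7.85, 7.93 and 8.01 with water. All 6 fasted mice lay within that range, with a median of 7.95 and an interval of -0.10 to 0.14 for the difference, although a second Rxra probe gave 0.20 ± 0.07 (adjusted p = 0.0344 among all probes). Rxrg, known best from muscle and brain, lay at 0.40, 1.00 and 1.29 with water and at -0.45, 0.35 and 0.53 with fasting. The groups overlapped by a single water mouse below the highest fasted values, and the log2 difference was -0.69 ± 0.19 (adjusted p = 0.00438), or -0.55 without fasted replicate 2.

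**Figure D2:**
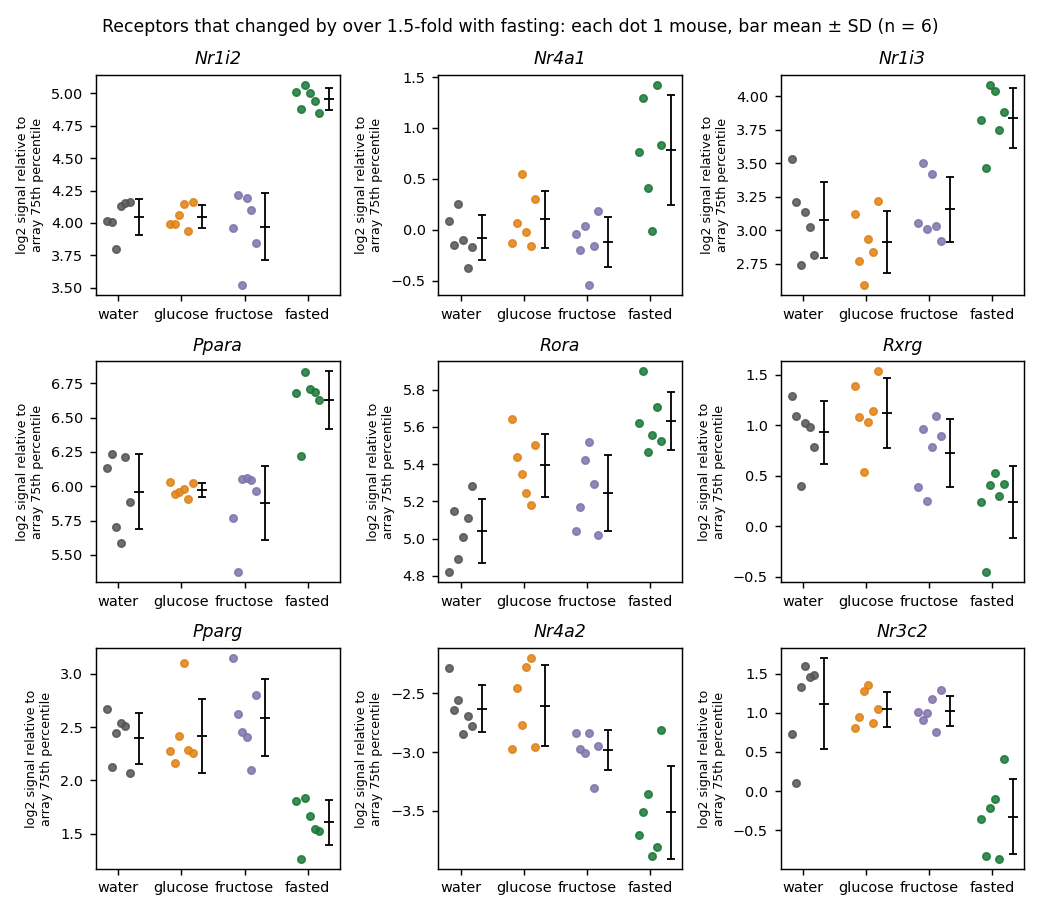
Log2 signal relative to the array's 75th percentile (vertical axis, scaled for each gene) in the 4 groups for the 9 receptors that changed by more than 1.5-fold with fasting, with 1 dot per mouse and bars for the mean ± SD of 6 mice. Nr1i2 and Rora separate fasted from water mice upward and Pparg downward, while single mice of the other 6 receptors overlap.

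Among HNF4, LRH1, RORA and the germ cell factor GCNF, Rora and Hnf4a rose. Rora, which is tied to lipid metabolism and to the clock, was at 4.82, 5.06 and 5.28 with water and at 5.47, 5.59 and 5.90 with fasting. The 2 groups did not overlap, and the glucose and fructose mice, at 5.18 to 5.64 and 5.02 to 5.52, overlapped with both. The log2 difference with fasting was 0.59 ± 0.10 (adjusted p = 5.13e-05), and a second probe gave 0.57. One more Rora probe, designed to another transcript model, was well above background in 1 water, 0 glucose, 1 fructose and 5 fasted mice. Its difference, also 0.59, was not called (adjusted p = 0.0699 among all probes).

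Hnf4a, a regulator of most hepatocyte genes, was at 7.77, 7.94 and 8.05 with water and at 7.94, 8.15 and 8.56 with fasting. The ranges overlapped, and the log2 difference was 0.31 ± 0.09 (adjusted p = 0.0102). This call was lost under quantile normalization, where the difference was 0.12 (adjusted p = 0.302), after normexp background correction with quantile normalization (adjusted p = 0.341) and in the authors' deposited table (adjusted p = 0.348). Nr5a2, or LRH1, which regulates bile acid and cholesterol genes, gave 0.15, Hnf4g -0.29 and Nr6a1, a germ cell receptor, -0.08, and none of them was called. Of the 12 HNF4A and LRH1 targets 5 rose and 3 fell, with Tat, a tyrosine-degrading enzyme, up by 1.28 beside the bile acid genes above.

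Esrra and Esrrb, estrogen-related receptors that work without a known hormone, rose, the first of them a known driver of mitochondrial genes. Esrra was at 4.28, 4.36 and 4.58 with water and at 4.54, 4.81 and 5.07 with fasting. A single overlap, of the lowest fasted mouse with the highest water mouse, remained. The log2 difference was 0.45 ± 0.07 (adjusted p = 3.16e-05), with 0.63 on its second probe. Esrrb was at -2.39, -2.12 and -1.89 with water and at -1.87, -1.52 and -1.10 with fasting, without overlap. Its log2 difference was 0.57 ± 0.20 (adjusted p = 0.0266), a call lost without water replicate 6 or fasted replicate 4, 5 or 6, where adjusted p reached 0.0717. The fasted mice overlapped both sugar groups for Esrrb. It was not called against glucose (0.41, adjusted p = 0.108 among all probes) or fructose (0.335, adjusted p = 0.193).

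Esrrg, their close relative, spread the most. It was at -3.24, -2.86 and -2.25 with water, at -4.40, -3.38 and -2.20 with fructose and at -3.37, -1.89 and -1.17 with fasting. The fasted and water groups overlapped through 1 low fasted mouse. The log2 difference was 0.75 ± 0.36 and not called (adjusted p = 0.0978), but without fasted replicate 2 it was 1.01 (adjusted p = 0.0173), and another Esrrg probe gave 0.92 ± 0.30 (adjusted p = 0.0166 among all probes). Of 8 tested estrogen-related receptor and oxidative genes 4 rose, so 50% were called, near the 42.6% of all genes. Pdk4, which blocks pyruvate oxidation, rose by 2.68 and Acadm, a fatty acid dehydrogenase, by 1.25. Both are also PPARA targets.

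Nr3c2, the mineralocorticoid receptor, which binds aldosterone and glucocorticoids, showed the largest change with fasting of the 34 receptors. It was at 0.11, 1.39 and 1.59 in the water group and at -0.87, -0.29 and 0.41 in the fasted group. The groups overlapped only because 1 water mouse was low. Nr3c2 fell 2.72-fold, a log2 difference of -1.45 ± 0.22 (adjusted p = 1.37e-05), and its other probes gave -1.93 and -1.09, both called. Against the glucose group the difference was -1.38 and against the fructose group -1.35.

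Esr1, the estrogen receptor alpha, gave a different answer by probe. It has 7 kept probes along its gene on the minus strand of chromosome 10 in mm9, numbered here from the 5′ side, from probe 1 at chr10:5677225-5677284 to probe 7 at chr10:5341167-5341226. The first 30 of the 60 bases of each probe are printed because the probes read different places of the gene and gave different values.
Esr1 probe 1: tggatgtacctctggtccagaactttttca
Esr1 probe 2: tacagtggcttttcaagacacacaaccttc
Esr1 probe 3: ttattgaccaacctagcagatagggagctg
Esr1 probe 4: aagatgctgttcaagaaccacaaatggaaa
Esr1 probe 5: tccccgaaaggttctgagaatccctgcaac
Esr1 probe 6: ttttttgtagacgtttcaaactaccgtgtc
Esr1 probe 7: attttccttcacagcgtacaaacaacgctt

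Probe 7 stands for the gene and was not called, at -0.35 ± 0.18 (adjusted p = 0.121), with levels of 2.35, 2.58 and 2.81 with water and 1.92, 2.16 and 2.66 with fasting. Probe 6 also fell, by 0.69 (adjusted p = 0.00115 among all probes), and probe 5, well above background on 20 of 24 arrays, gave -0.04 ± 0.29. The 4 probes further 5′ were all called lower. Probe 1, well above background in 3 of 6 fasted mice and in all fed mice, gave -1.16 ± 0.20, probe 2 gave -1.99 ± 0.24 and probe 3 gave -1.11 ± 0.21, with adjusted p-values among all probes between 5.31e-07 and 0.000161. Probe 4 was well above background in all 18 fed mice and in 0 of 6 fasted mice. There the fasted level was not resolved, and a floor was put in its place. On each fasted array the floor was the dimmest signal that passed or the probe's own signal, whichever was higher. The water mean of -3.20 was 5.08-fold above the mean floor of -5.55. This is no strict limit, because brighter signals could also fail: a Thra probe that passed in 0 fasted mice reached -4.97 in 1 of them.

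The probes were designed to 4 transcript models: probes 3 and 4 share 1, probes 5 and 6 another, probes 1 and 7, at the 2 ends, the next, and probe 2 has its own. Which exons or introns the probes lie in was not analysed here.

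**Figure D3:**
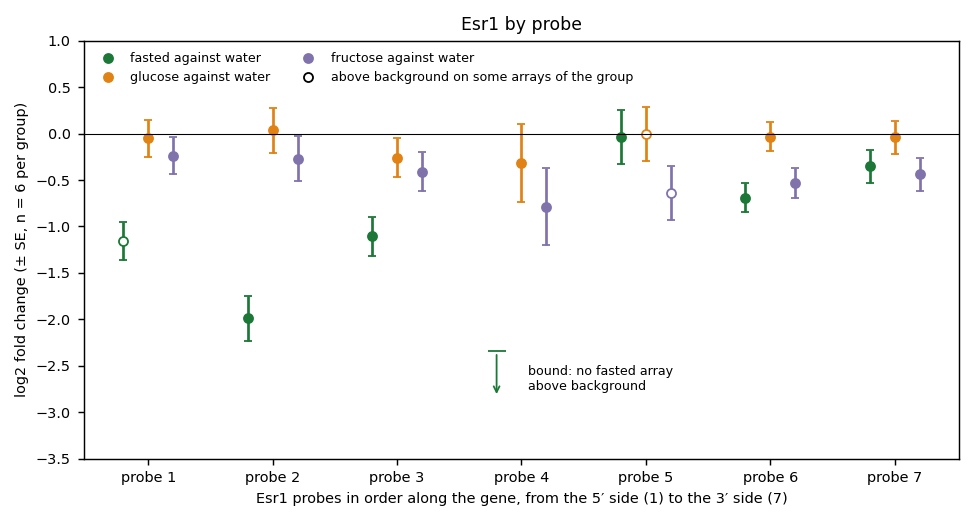
Log2 fold change against the water group (vertical axis, ± SE, 6 mice per group) for the 7 kept Esr1 probes, ordered from the 5′ side to the 3′ side of the gene, in fasted, glucose and fructose mice. Open points mark groups with some arrays not well above background. The arrow at probe 4, where no fasted array was well above background, starts at a floor 5.08-fold below water, which is no strict limit. Fasted values lie between -1.11 and -1.99 at probes 1 to 3 and between -0.04 and -0.69 at probes 5 to 7.

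No receptor had probes called in opposite directions. Of the 21 receptors with more than 1 kept probe, 9 had every kept probe called in 1 direction, 10 had some called, Esr1 among them, and 2 had none called.

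The NR4A receptors, orphan receptors that act as immediate early genes and are known targets of cAMP and CREB in fasting liver, did not move together. Their promoters are printed for that reason, from RefSeq on GRCm38.p6, each from 250 bases before to 50 bases after the gene's start. Capitals mark CGTCA, the core of the cAMP response element, read on either strand. They are Nr4a1 at chr15:101266596-101266895 on the plus strand, Nr4a2 at chr2:57123954-57124253 on the minus strand and Nr4a3 at chr4:48045055-48045354 on the plus strand.
Nr4a1: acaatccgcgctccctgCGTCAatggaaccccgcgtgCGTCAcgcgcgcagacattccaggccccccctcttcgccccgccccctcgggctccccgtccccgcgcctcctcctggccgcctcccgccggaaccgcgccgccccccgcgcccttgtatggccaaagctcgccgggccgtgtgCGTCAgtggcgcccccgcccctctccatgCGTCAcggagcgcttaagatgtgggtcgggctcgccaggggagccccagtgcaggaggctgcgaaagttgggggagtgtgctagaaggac
Nr4a2: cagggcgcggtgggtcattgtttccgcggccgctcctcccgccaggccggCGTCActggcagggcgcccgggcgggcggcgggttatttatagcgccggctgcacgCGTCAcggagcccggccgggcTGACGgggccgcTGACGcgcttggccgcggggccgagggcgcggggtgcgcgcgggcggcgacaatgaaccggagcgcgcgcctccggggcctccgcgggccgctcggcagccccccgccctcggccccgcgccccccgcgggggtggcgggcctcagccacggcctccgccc
Nr4a3: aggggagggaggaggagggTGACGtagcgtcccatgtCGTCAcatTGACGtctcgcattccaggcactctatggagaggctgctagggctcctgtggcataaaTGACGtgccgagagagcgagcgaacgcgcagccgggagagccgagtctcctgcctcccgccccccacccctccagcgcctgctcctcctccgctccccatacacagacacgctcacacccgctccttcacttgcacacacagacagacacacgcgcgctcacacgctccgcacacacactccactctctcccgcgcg

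Each of the 3 holds 4 matches, and at least 4 were found in 0.231% of 32851 promoters of that length. Any CGTCA was found in 20.8% of all promoters and in 15 of the 53 promoter entries of the receptors, and the whole element TGACGTCA in 1.79% of all and in 1 receptor entry, that of Nr6a1. CGTCA was added to the motifs after the fold changes were known, and the cut-off of 4 equals the count that these 3 hold. The share of 0.231% is therefore a description and no test. These matches describe letters, not binding.

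Nr4a1 was at -0.38, -0.13 and 0.26 with water and at -0.01, 0.80 and 1.43 with fasting. In the fasted group 5 of 6 mice lay above the water range. It rose by 0.86 ± 0.19 (adjusted p = 0.000774). Nr4a2 went the other way, from -2.85, -2.66 and -2.28 to -3.89, -3.61 and -2.81, with 5 of 6 fasted mice below the water range. Its log2 difference was -0.88 ± 0.16 (adjusted p = 0.000114), but the size moved with the processing, to -0.52 in the deposited table and -0.32 after normexp correction with quantile normalization, both still called. The cause was not tested. Nr4a3 gave 0.16 ± 0.09 and was not called (adjusted p = 0.179), except without fasted replicate 6 (adjusted p = 0.0388). Of 12 cAMP and immediate early genes 6 rose and the other 6 were not called, so 50% were called, near the 42.6% of all genes. Egr1, an early growth response factor, rose by 3.60, Ppargc1a by 2.58 and Junb, an AP-1 subunit, by 1.55.

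Of the 5 remaining orphan receptors Nr2c2 and Nr2c1 rose and Nr2f6 fell. Nr2c2 (TR4) was at 0.57, 0.93 and 1.12 with water and at 1.03, 1.31 and 1.89 with fasting. The groups overlapped, with a log2 difference of 0.50 ± 0.11 (adjusted p = 0.000829). Other Nr2c2 probes, well above background on all 24 arrays, gave 0.28 (adjusted p = 0.0491 among all probes) and 0.31 (adjusted p = 0.0727, not called). Its partner Nr2c1 (TR2) rose by 0.27 ± 0.10 (adjusted p = 0.0298), a call lost without any 1 of water replicates 1 to 4 or fasted replicates 1 and 5, with adjusted p up to 0.0788. Its second kept probe gave 0.01 (adjusted p = 0.95 among all probes) and the mean over probes 0.14 (adjusted p = 0.328). The call was also lost with only the 2 groups fitted (adjusted p = 0.064), with the array median and with no filter. Nr2f6, a COUP-TF relative, fell by 0.20 ± 0.055 (adjusted p = 0.00506), and its second probe gave -0.58. Nr2f1 and Nr2f2, the COUP-TF receptors of many tissues, gave -0.24 and 0.14 and were not called, although Nr2f1 was called without water replicate 3 or fasted replicate 3 or 6 (adjusted p down to 0.00688).

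Of 23 cofactors that receptors recruit, coactivators and corepressors, 13 rose and 3 fell. That is 69.6% called, where 42.6% of all genes were. Ppargc1a and Ppargc1b, coactivators of mitochondrial and gluconeogenic genes that bind Ppara, Hnf4a and Esrra, rose by 2.58 and 1.49, and Ncoa4, also a ferritin receptor, rose by 1.14.

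**Figure D4:**
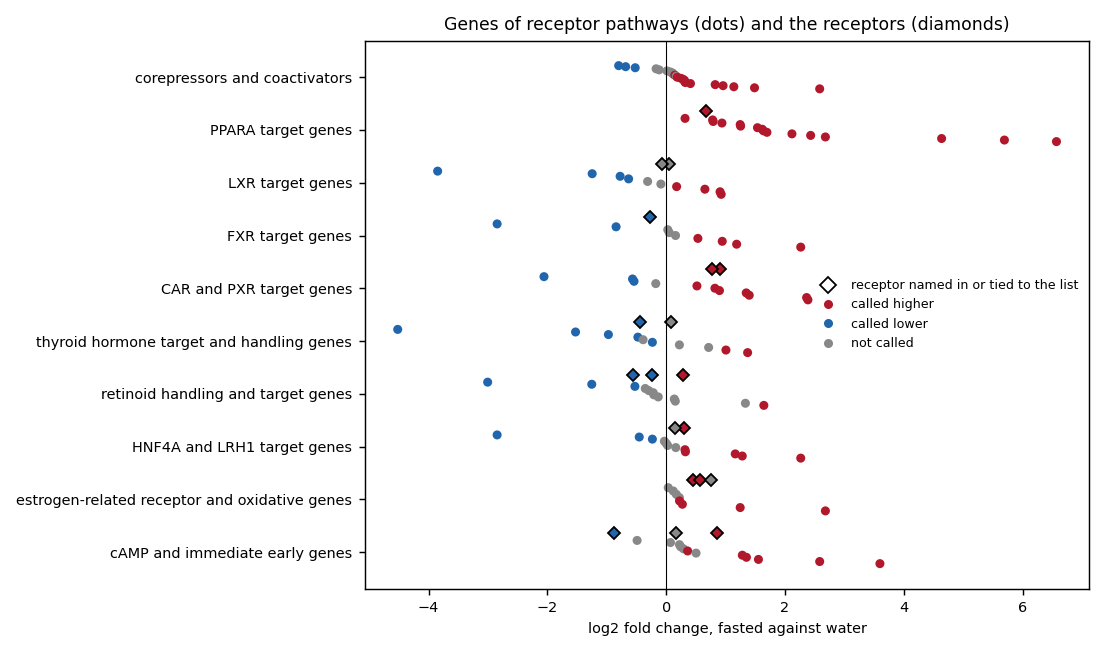
Log2 fold change, fasted against water (horizontal axis), of the tested genes of 10 lists (dots, 1 per gene) with the receptors that belong to each list (diamonds), coloured by call. All 16 PPARA targets lie to the right of 0, while the LXR, FXR and thyroid hormone lists spread to both sides.

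Markers of other cells were read beside the same background of 42.6% of genes called. Of those tested, 2 of 7 Kupffer markers rose, 3 of 7 endothelial markers rose and 2 fell, 3 of 5 cholangiocyte, 2 of 5 lymphocyte and 1 of 3 red cell markers fell, and of 4 neutrophil markers 1 rose and 1 fell. The log2 of the summed neutrophil signal ran from 0.53 to 1.13 with water and from -0.16 to 4.49 with fasting. The fasted mice thus spread widely. The log2 of the summed cholangiocyte signal was 2.81 to 3.50 with water and 1.82 to 3.25 with fasting. For the Kupffer markers the same measure gave 6.02 to 6.53 and 6.19 to 6.89. For the hepatocyte markers it gave 12.21 to 12.46 with water and 12.29 to 12.49 with fasting. The part of these cells in the receptor values was not tested.

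Neither sugar produced a called change in any of the 34 receptors. With glucose 0 receptors were called where 0.830% of all genes were, and with fructose 0 where 0.880% were. Unadjusted p-values under 0.05 were found for 3 receptors with each sugar. The depth of the comparison bounds what could be missed: the 95% interval lay within a 1.5-fold change either way for 32 of 34 receptors with glucose, all but Esrrg and Hnf4g, and for 28 of 34 with fructose, all but Esr1, Esrrb, Esrrg, Hnf4g, Nr4a2 and Rxrg.

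Rora had the largest log2 difference with glucose, 0.35 ± 0.10 (adjusted p = 0.112), with levels of 5.18, 5.39 and 5.64 against 4.82, 5.06 and 5.28 with water. The groups overlapped. This value was called after normexp correction with quantile normalization (0.38, adjusted p = 0.0465) and in the deposited table (0.41, adjusted p = 0.0382). With the mean over its kept probes, 1 of them well above background on 7 arrays, it was 0.10 (adjusted p = 0.814). That dim probe had means of -5.065 with water and -5.468 with glucose. The remaining Rora probe, well above background on all 24 arrays, had means of 1.68 with water and 2.03 with glucose. With fructose the lowest differences were those of Esrrg (-0.67 ± 0.36), Esr1 (-0.44 ± 0.18) and Nr4a2 (-0.35 ± 0.16), with adjusted p-values between 0.22 and 0.368. All 7 Esr1 probes were lower with fructose than with water, by 0.24 to 0.79 downward, and none was called. Probe 5 was well above background in only 3 of 6 fructose mice.

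Few genes of the receptor lists changed with sugar. Fgf21 rose with both, by 4.41 with glucose and 3.45 with fructose, and so did Me1, by 1.30 and 1.43. Cyp3a11, a PXR target that degrades drugs, and Por, the reductase that feeds P450 enzymes, fell by 0.64 and 0.50 with glucose, where Nr1i2 itself differed by 0.00 with an interval of -0.19 to 0.20. With fructose Cyp3a11 gave -0.23 and Por -0.11, neither of them called, and whether the sugars differ there gave adjusted p-values of 0.529 and 0.427.

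Fructose and glucose did not differ in a called way for any receptor, nor for any of the 23966 genes (0% of all genes called, with 1869 genes and 5 receptors at an unadjusted p under 0.05 in limma). The interval lay within 1.5-fold for 29 of the 34 receptors. Esrrg again had the widest, -0.84 with an interval of -1.58 to -0.10.

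Set against the sugar groups in place of water, fasting gave 16 called receptors against glucose, 9 higher and 7 lower (44.6% of all genes called), and 20 against fructose, 11 higher and 9 lower (45.3% of all genes). These comparisons share the fasted mice with the one against water and are no independent repeat. Against fructose, Esrrg was called, at 1.42 ± 0.36 (adjusted p = 0.00221), and Ppard was called against glucose, at -0.37 ± 0.13 (adjusted p = 0.0242), but not without glucose replicate 6 or fasted replicate 6, where adjusted p was up to 0.07. Rora was higher in fasted than in fructose mice by 0.39 (adjusted p = 0.00321). Against glucose its difference was 0.24 (adjusted p = 0.063), and without glucose replicate 1 or fasted replicate 3 it was called.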

How the data were processed

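Liver RNA of 24 mice was hybridised to 1-colour (Cy3) Agilent arrays, 1 per mouse. The arrays sat on 3 slides, each of which held 2 mice of all 4 groups. Per the file headers, the authors scanned them with Agilent Feature Extraction 10.10.1.1, and the deposited intensity of each spot was background-subtracted within its array and not scaled between arrays. The same deposited files give quality flags and a call of well above background for each spot. A table of log2 values that the authors deposited for the series served as an alternative. Its normalization is not given in the sources used here (limma is named, per the submitters' processing notes).

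Control spots and outlier spots were left out, processed intensity was taken to log2, spots of a probe were averaged, and the 75th percentile of each array was subtracted. Probes had to be well above background on 6 or more arrays, as 36229 of 56605 were, and the brightest such probe on average stood for its gene (23966 genes). Group means were fitted over all 24 arrays with limma 3.58.1 in R 4.3.3, with 6 comparisons and Benjamini-Hochberg adjustment within each. The fit was tested on simulated data for 6 fasted against 6 water arrays (23920 genes, 50 changed per size). It recovered 20% at a log2 change of 0.25, 50% at 0.5, 78% at 1 and 98% at 2, with 5 false among 128 calls. Far fewer genes were changed there than the 42.6% called with fasting, so the adjusted p was harder to pass. These rates therefore do not give the recovery in the measured comparison of fasted and water mice. Array number and signal over background limit the precision.

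The rule for the members uses names alone, but the family and the lists were chosen for description with earlier results of these data known. All 35 receptors are accounted for, with up to 3 genes named per list and comparison, called genes with the largest change first. Any further gene was named after its values were seen. Names of other genes came from RefSeq on GRCm38.p6, as did promoters (entries for 33 of 35 receptors), and probe positions are the array's, on mm9. Alternatives covered scaling, background correction, the deposited table, filters, probe choice, slide, pairing, array weights, the variance model, the arrays in the fit and each array left out. The glucocorticoid response element was found in 0.0578% of promoters, the DR1 in 0.0396%, AGGTCA in 16.3%, CACGTG in 7.15% and TATAAA in 13.6%, and in 0, 0, 10, 4 and 5 of the 53 receptor entries. A member of the cofactor list is not reported by name here.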

Additional observations from a re-analysis of the deposited data

Results flagged for a closer look

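Over 136 sets of 6 mice (34 receptors in 4 groups) 8 held 1 mouse whose gap to its nearest neighbour took up most of the group's range, on a criterion that chance meets in about 1 of 20 groups. Fasted replicate 2 accounts for 3 of them. It was the lowest fasted mouse for Ppara, at 6.22, and for Rxrg, at -0.45, and the highest for Rxrb, at 5.01. Glucose replicate 4 was high for Pparg (3.10), glucose replicate 3 low for Nr1h3 (5.30) and glucose replicate 1 high for Nr2f2 (1.68). Fructose replicate 3 was low for Nr2f6 (5.69) and fructose replicate 5 low for Nr4a2 (-3.30). The calls of Ppara, Rxrb and Rxrg with fasting held without fasted replicate 2, with adjusted p-values of 2.56e-05, 9.67e-07 and 0.0136.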

How the results depend on the processing

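Of the 21 receptors called with fasting against water, 16 stayed called with any single array left out, 16 under every other setting except single slides, and all 21 kept their sign within each of the 3 slides. Leaving out each array in turn gave 17 to 22 called receptors against water, 15 to 17 against glucose and 18 to 22 against fructose, and 0 to 0 in the 3 comparisons among fed groups. Within slides 1, 2 and 3, with 2 arrays per group, the counts were 7, 10 and 7 against water, 6, 10 and 7 against glucose, and 7, 12 and 6 against fructose; fewer arrays are fitted there. Glucose against water gave 1 receptor, Rora, after normexp correction with quantile normalization and 1 in the deposited table; the cause was not tested. Hnf4a with fasting against fructose reversed within slide 1, to -0.077 (adjusted p = 0.679), and Esr1 in the same comparison went from 0.085 to -0.736 with the mean over its probes (adjusted p = 0.000461), a mean that takes in 1 probe not above background in any fasted mouse. With the replicate block the count against water was 21, with 13 higher and 8 lower. Deviations of same-numbered mice correlated at a mean of 0.0335 (-0.174 to 0.219, over 0.1 in 9 of 36 pairs). For mice of different number and group the mean was -0.00674 (-0.245 to 0.257, over 0.1 in 25 of 180 pairs). These values cannot settle whether the replicate numbers pair the mice, and the block is given here only. Rarg lost its call with it (adjusted p = 0.0502). The median difference of all genes lay within 0.035 of 0 on the log2 scale under every scaling run. Against water, Esrrg was called after normexp correction with quantile normalization (0.419, adjusted p = 0.0411), with the mean over probes (0.64, adjusted p = 0.0206), with the replicate block (adjusted p = 0.0459) and with array weights (adjusted p = 0.0369). Esr1 was called lower against water with only the compared groups fitted (adjusted p = 0.0404). It was also called with the mean over its probes, at -1.21 (adjusted p = 1.16e-06), and that mean against glucose was -1.115 (adjusted p = 3.13e-06). Both means take in the probe not above background in any fasted mouse. Against water Nr1h3 was called, in the lower direction, after normexp correction with quantile normalization, and Ppard, also lower, with array weights.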
